A study of Mus musculus with 6 samples.

Results

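The collagen genes described here are the 40 protein-coding genes of the deposited table whose symbol is Col, a number, the letter a and a number, out of 23842 genes in all. They comprised 11 fibrillar chains, 8 basement membrane chains (type IV and the multiplexins), 7 fibril-associated collagens with interrupted triple helices (FACIT) and 14 other chains. Total RNA was sequenced from mouse embryonic fibroblasts (MEF), connective tissue cells taken from embryos and grown in culture. Of the 6 libraries, 3 were labelled NGLY1-/- and 3 wild type (WT), all on the C57BL/6 strain. NGLY1 is the cytosolic enzyme that removes N-linked sugar chains from misfolded glycoproteins. The NGLY1-/- and the WT cells shared the same high-glucose medium with fetal bovine serum and received no treatment. Whether the 3 libraries of a group came from separate embryos, lines or dishes was not given, nor were the embryonic age and passage. The p-values below therefore measure the spread between these libraries, which may be technical.

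Collagens are trimers of chains that wind around each other through repeats of glycine and 2 further residues, often proline or hydroxyproline. Fibrillar chains pack into the fibrils that carry tension in skin, tendon and bone, type IV chains form the sheet-like network of basement membranes, FACIT chains sit on fibril surfaces, and type VI chains build beaded microfibrils near cells. Fibroblasts are a main source of fibrillar and type VI collagen, and the chains are hydroxylated, glycosylated and folded in the endoplasmic reticulum before export.

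Library depth was 33007239 to 37841558 counts in the NGLY1-/- libraries and 27323577 to 37790710 counts in the WT libraries. Ribosomal RNA took 0.215, 0.984 and 5.25% of counts in the NGLY1-/- libraries and 1.55, 1.93 and 3.95% in the WT libraries. On a log scale, WT replicate 3, the shallowest, correlated at 0.980 and 0.982 with WT replicates 1 and 2, which correlated at 0.994. The targeted gene, Ngly1, was counted 618, 420 and 457 times in the NGLY1-/- libraries and 668, 632 and 307 times in the WT libraries. It averaged 14.6 ± 3.11 counts per 1000000 counts of the scaled library (CPM) in NGLY1-/- and 14.6 ± 2.94 CPM in WT (SD, n = 3 each). Where in Ngly1 the deletion lies was not given, so a whole-gene count is no check of the genotype, and the directions below rest on the labels. Of 15039 genes with enough counts to test, 60.9% were called at an adjusted p below 0.05, 30.7% higher and 30.2% lower in NGLY1-/-. Among fibroblast markers, 7 of 9 could be tested, of which Dcn and Fn1 were higher and Pdgfra, Pdgfrb, Thy1, Vim and S100a4 lower in NGLY1-/-. Their summed level was 7772 to 8665 CPM in NGLY1-/- and 4845 to 5164 CPM in WT, but Fn1 alone gave 6839 to 7761 CPM in NGLY1-/- and 1845 to 2335 CPM in WT. Without Fn1 the sum was lower in NGLY1-/-, at 904 to 1011.5 CPM against 2825 to 3068 CPM in WT. The other 2, Lum and Fap, had 0 to 4 counts in every library. Smooth muscle markers summed to 222 to 294 CPM in NGLY1-/- and 102 to 163 CPM in WT, with 3 higher, 1 lower and Myh11 not tested, and their part in the collagen results was not tested. In bulk RNA, fewer cells of a type and less RNA per cell cannot be told apart.

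The summed collagen share of the counts was close in both genotypes, while its make-up differed. Collagen genes took 0.938, 0.840 and 0.850% of all counts in the NGLY1-/- libraries and 1.02, 0.949 and 0.851% in the WT libraries. The means were 0.876 ± 0.0541% in NGLY1-/- and 0.940 ± 0.0848% in WT (SD, n = 3 each), with overlapping groups. The direction turned with scaling: in CPM, collagens summed to 9135 ± 721 in NGLY1-/- and 9017 ± 485 in WT, again overlapping. Within the collagen counts, fibrillar chains made up 60.4 ± 1.79% in NGLY1-/- and 70.5 ± 1.42% in WT. The other chains made up 21.4 ± 1.64% in NGLY1-/- and 9.74 ± 0.735% in WT. A single gene, Col6a3, held 12.4, 14.5 and 15.1% of collagen counts in the NGLY1-/- libraries and 1.27, 0.989 and 0.660% in the WT libraries. Basement membrane chains held 15.4 ± 0.512% in NGLY1-/- and 16.9 ± 2.56% in WT, and FACIT chains 2.82 ± 0.321% in NGLY1-/- and 2.93 ± 0.417% in WT. Without Col6a3, the other chains summed to 675 ± 56.1 CPM in NGLY1-/- and 792 ± 80.5 CPM in WT, and there the groups overlapped, with NGLY1-/- replicate 1 at 713 CPM and WT replicate 3 at 703 CPM. Shares are parts of the same total, so the larger Col6a3 share in NGLY1-/- lowers those of the remaining classes. In CPM, fibrillar chains summed to 5523 ± 577 in NGLY1-/- and 6358.5 ± 462 in WT. Those groups overlapped, with NGLY1-/- replicate 1 at 6169 CPM and WT replicate 3 at 5855 CPM. These shares and sums are descriptions with no test.

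**Figure D1:**
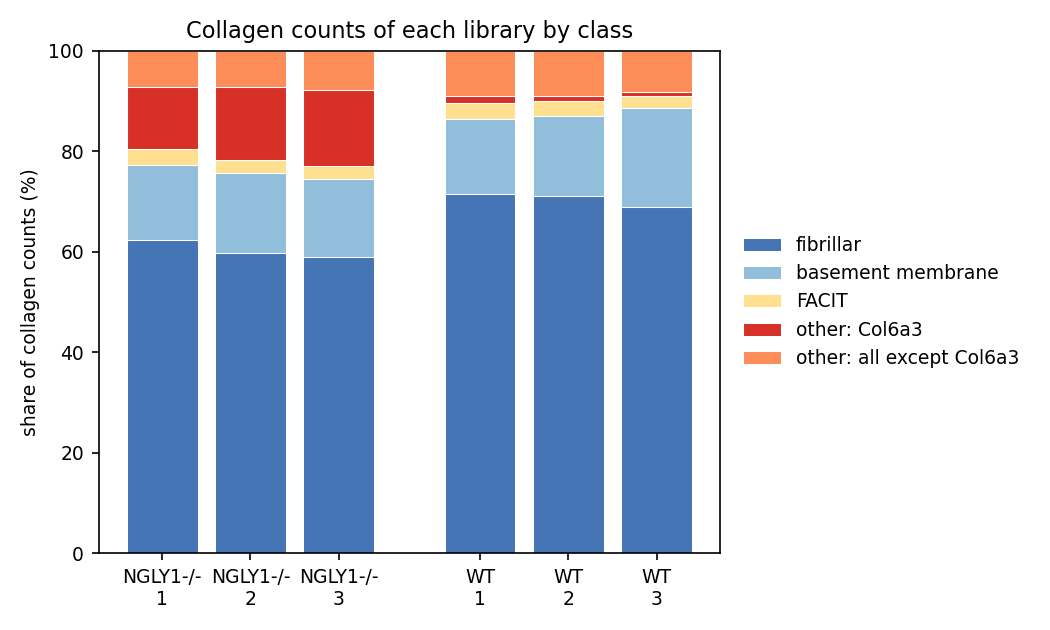
Share of all collagen counts held by each collagen class in each library (percent; NGLY1-/- libraries left, WT libraries right), with Col6a3 drawn apart from the other chains. Fibrillar chains averaged 60.4% in NGLY1-/- and 70.5% in WT, and Col6a3 averaged 14.0% in NGLY1-/- and 0.974% in WT. Shares are parts of the same total, so a larger Col6a3 share lowers the others.

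Of the 40 collagen genes, 25 had enough counts to test and 15 did not. Among the 25, 6 were higher, 9 were lower and 10 were not called in NGLY1-/-, so 60.0% were called against 60.9% of all tested genes. The collagens were thus called about as often as any gene. The median log2 fold change of the 25 was -0.16, against -0.04 over all tested genes, and their median size of change was 0.39 against 0.59. Of the 25, 5 were at least 2-fold higher and 5 at least 2-fold lower, against 13.6% and 14.9% of all tested genes. The 6 libraries separated by genotype in 13 of the 25, or 52.0%, against 67.3% of all tested genes. By class, 4 of 10 fibrillar chains, 3 of 5 basement membrane chains, 4 of 4 FACIT chains and 4 of 6 other chains were called. Col11a1, Col24a1 and Col4a6 passed the filter on low counts through the WT libraries alone, and Col8a2 reached its cutoff in only 2 of 3 WT libraries, so these 4 genes passed only through the group where they were high.

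**Figure D2:**
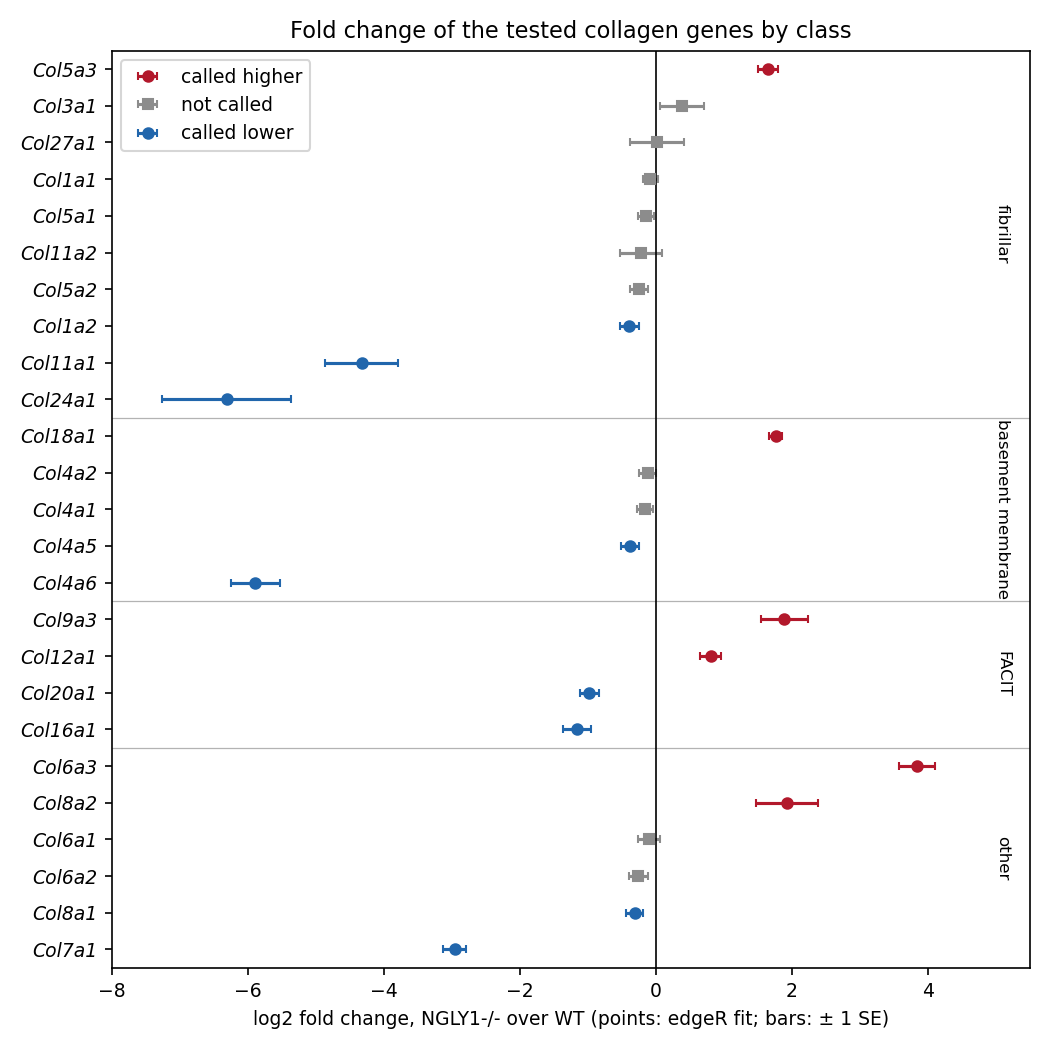
Log2 fold change, NGLY1-/- over WT, of each tested collagen gene by class, with the standard error of the edgeR fit as bars and calls at an adjusted p below 0.05 marked. Both directions occur in every class; Col6a3, at 3.84, is the highest and Col24a1, at -6.31, the lowest.

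Of the fibrillar chains that make the bulk of fibroblast collagen, Col1a1, Col3a1, Col5a1 and Col5a2 were not called and Col1a2 fell modestly. A chain that was not called is not thereby shown to be alike in both genotypes. Col5a3 rose and the sparse chains Col11a1 and Col24a1 fell. Per kilobase of coding sequence, Col5a2 (421 CPM), Col1a2 (398 CPM) and Col1a1 (257 CPM) led in NGLY1-/-, while Col1a2 (522 CPM), Col5a2 (500 CPM) and Col1a1 (271 CPM) led in WT. The order of the first 2 depends on the length used: Col1a2 was first in both genotypes by whole transcript length, and Col5a2 in both without a length correction.

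Col1a1, on chromosome 11 at 94936224 to 94953042, encodes the main chain of type I collagen, the principal protein of skin and bone. It was at 1098, 1017 and 1240 CPM in the NGLY1-/- libraries and 1265, 1123 and 1160 CPM in the WT libraries. The groups overlapped, with a log2 fold change of -0.08 (SE 0.11, adjusted p = 0.557). Col1a2, its partner chain, on chromosome 6 at 4505618 to 4541543, was at 1803, 1506 and 1608 CPM in the NGLY1-/- libraries and 2427, 2261 and 1759 CPM in the WT libraries. Replicate 3 of WT lay below replicate 1 of NGLY1-/-, so the groups overlapped, yet the fold change was called. It averaged 1639 ± 151 CPM in NGLY1-/- and 2149 ± 348 CPM in WT and fell by 0.39 on the log2 scale (SE 0.14, adjusted p = 0.0359). The median gene of chromosome 6 was itself lower by a similar amount, at a log2 fold change of -0.41, and its part in the result was not tested. The call was lost when NGLY1-/- replicate 2 or 3, or WT replicate 1 or 2, was left out (adjusted p = 0.109 to 0.152).

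Col3a1, the chain of type III collagen of stretchable tissues, was at 401, 319 and 324 CPM in the NGLY1-/- libraries and 362, 308 and 132 CPM in the WT libraries. WT replicate 3 was the lowest of the 6 by a wide margin. The log2 fold change was 0.38 (SE 0.32, adjusted p = 0.338), and 0.07 without that library. Col5a1, a type V chain that helps to set fibril width, was at 502, 389 and 408 CPM in the NGLY1-/- libraries and 525, 458 and 457 CPM in the WT libraries (log2 fold change -0.15, SE 0.12, adjusted p = 0.301). Col5a2, its partner, was at 2268, 1739 and 1668 CPM in the NGLY1-/- libraries and 2142, 2274 and 2321 CPM in the WT libraries (log2 fold change -0.25, SE 0.14, adjusted p = 0.142). Both overlapped between genotypes, and for Col5a2 it was NGLY1-/- replicate 1 that reached into the WT range. Without that library Col5a2 was called lower (log2 fold change -0.39, adjusted p = 0.0231).

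Col5a3, a less widespread type V chain on chromosome 9 at 20770050 to 20815117, was the fibrillar gene that rose. It was at 95.5, 85.7 and 92.2 CPM in the NGLY1-/- libraries and 34.7, 29.7 and 22.6 CPM in the WT libraries. Every NGLY1-/- library exceeded every WT library, with means of 91.1 ± 4.99 CPM in NGLY1-/- and 29.0 ± 6.07 CPM in WT (SD, n = 3 each). The rise was 3.14-fold, a log2 fold change of 1.65 (SE 0.15, adjusted p = 9.0e-06), although the median gene of chromosome 9 had a log2 fold change of -0.45.

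Col11a1, a cartilage fibril chain that also forms mixed trimers with type V chains, was counted 3, 2 and 4 times in the NGLY1-/- libraries and 90, 92 and 24 times in the WT libraries. It fell by 4.33 on the log2 scale (SE 0.54, adjusted p = 7.93e-05), or 20.1-fold. Col24a1, a fibrillar chain known from developing bone, had 0, 0 and 1 counts in the NGLY1-/- libraries and 71, 38 and 11 counts in the WT libraries. The summed counts per depth were 115 times higher in WT, with an exact interval of 20.2 to 4566 that covers counting error only (95%). Its fitted log2 fold change was -6.31 (adjusted p = 0.000266), and -8.19 without the NGLY1-/- replicate 3 that held the single count. Col11a2 (1.68 ± 0.407 CPM in NGLY1-/- and 1.96 ± 0.491 CPM in WT) and Col27a1 (0.511 CPM in NGLY1-/- and 0.495 CPM in WT) were not called. Col2a1, the cartilage fibril chain, had 3, 3 and 3 counts in NGLY1-/- and 0, 3 and 1 counts in WT and was not tested. Chondrocyte markers summed to 21.1 to 34.9 CPM in NGLY1-/- and 12.3 to 15.5 CPM in WT, with Sox9 higher, Matn3 lower and Acan at 0 to 4 counts in every library. Without Sox9 they summed to 1.72 to 1.98 CPM in NGLY1-/- and 3.18 to 4.62 CPM in WT, and their part in these results was not tested.

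**Figure D3:**
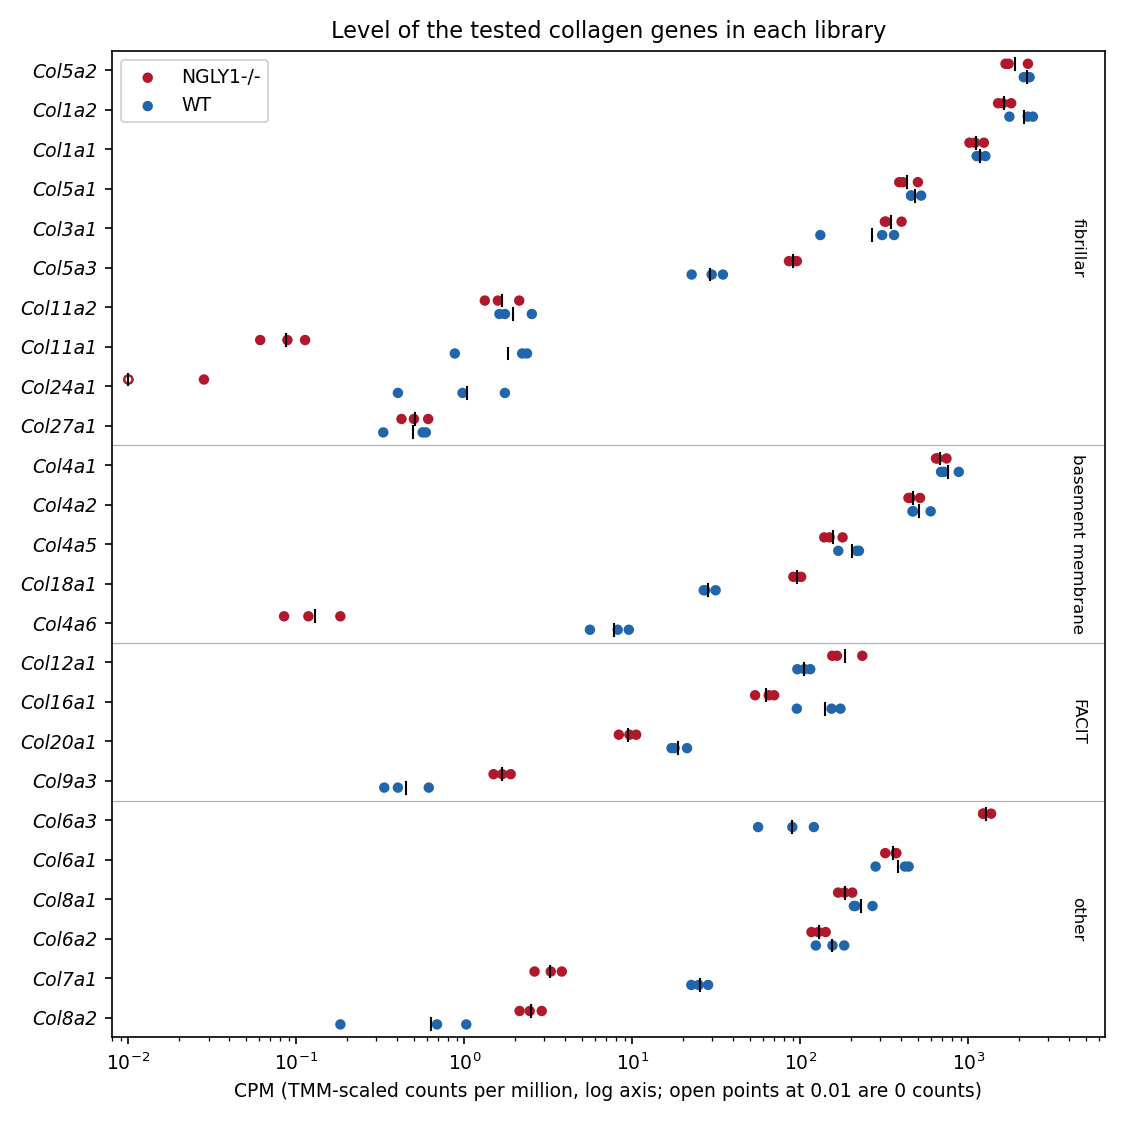
Level of the tested collagen genes in each library (CPM on a horizontal log axis, with NGLY1-/- points above WT points for each gene), arranged by class. The abundant fibrillar and type IV chains overlap between genotypes, though Col1a2 and Col4a5 were called lower in NGLY1-/-. Col6a3 averages 1274.5 CPM in NGLY1-/- and 88.8 CPM in WT.

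The basement membrane chains split between the ubiquitous type IV pair, which was not called, and less abundant chains, which moved in both directions. Col4a1 and Col4a2, the chains of the type IV trimer found in nearly all basement membranes, lie head to head on chromosome 8. Their promoter windows, 250 bases before to 50 after the start from RefSeq on GRCm38.p6, overlap by 78 bases, and the starts are 21 bases apart. The windows are shown because this pair shares its start region and was not called, and capitals mark the shared bases, Col4a1 at chr8:11312777-11313076 on the minus strand and Col4a2 at chr8:11312555-11312854 on the plus strand.
Col4a1: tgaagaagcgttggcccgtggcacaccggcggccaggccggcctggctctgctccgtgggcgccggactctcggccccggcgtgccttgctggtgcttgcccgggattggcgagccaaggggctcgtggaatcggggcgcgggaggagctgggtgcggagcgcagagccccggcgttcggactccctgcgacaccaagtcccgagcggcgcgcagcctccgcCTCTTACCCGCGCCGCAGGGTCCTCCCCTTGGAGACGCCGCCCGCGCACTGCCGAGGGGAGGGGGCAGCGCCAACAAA
Col4a2: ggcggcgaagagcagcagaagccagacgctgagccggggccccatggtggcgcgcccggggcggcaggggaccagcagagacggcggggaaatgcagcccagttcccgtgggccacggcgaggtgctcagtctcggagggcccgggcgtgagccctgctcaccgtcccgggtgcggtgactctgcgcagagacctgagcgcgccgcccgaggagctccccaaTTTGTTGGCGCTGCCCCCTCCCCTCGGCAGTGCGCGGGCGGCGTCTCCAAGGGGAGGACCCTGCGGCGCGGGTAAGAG
Col4a1 was at 742, 643 and 659 CPM in the NGLY1-/- libraries and 689, 718 and 879 CPM in the WT libraries (log2 fold change -0.16, SE 0.12, adjusted p = 0.263). Col4a2 was at 453, 441 and 517 CPM in the NGLY1-/- libraries and 470, 466 and 598 CPM in the WT libraries (log2 fold change -0.12, SE 0.12, adjusted p = 0.415). Both overlapped between genotypes, and WT replicate 3 was the highest of the 6 for both.

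The second type IV pair, Col4a5 and Col4a6, lies head to head on chromosome X and forms the trimer of smooth muscle, skin and gut basement membranes. The starts of this pair are 1343 bases apart, so their windows do not overlap. They are shown because the 2 neighbours differed in size of change. Col4a6 is at chrX:141474027-141474326 on the minus strand and Col4a5 at chrX:141475169-141475468 on the plus strand, and capitals mark GGGCGG, the GC box, as well as CCAAT and TATAAA, on either strand.
Col4a6: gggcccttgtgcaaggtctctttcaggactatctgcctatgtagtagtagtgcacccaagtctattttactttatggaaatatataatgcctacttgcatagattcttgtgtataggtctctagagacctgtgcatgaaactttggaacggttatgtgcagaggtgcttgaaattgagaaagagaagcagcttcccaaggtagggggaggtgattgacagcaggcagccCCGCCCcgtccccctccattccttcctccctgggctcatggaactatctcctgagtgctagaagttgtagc
Col4a5: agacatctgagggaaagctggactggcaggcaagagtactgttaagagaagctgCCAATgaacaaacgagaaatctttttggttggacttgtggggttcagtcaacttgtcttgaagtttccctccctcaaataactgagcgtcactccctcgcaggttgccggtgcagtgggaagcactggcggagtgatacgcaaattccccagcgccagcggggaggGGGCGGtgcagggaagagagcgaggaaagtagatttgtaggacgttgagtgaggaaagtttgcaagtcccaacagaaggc
Col4a6 was counted 4, 6 and 3 times in the NGLY1-/- libraries and 388, 319 and 153 times in the WT libraries. With 0.128 ± 0.05 CPM in NGLY1-/- and 7.78 ± 2.002 CPM in WT (SD, n = 3 each), it fell by 5.90 on the log2 scale (SE 0.36, adjusted p = 6.90e-07), or 59.5-fold. Col4a5 was at 179, 150 and 139 CPM in the NGLY1-/- libraries and 224, 217 and 168 CPM in the WT libraries. It fell by 0.38 on the log2 scale (SE 0.13, adjusted p = 0.0311), with NGLY1-/- replicate 1 above WT replicate 3, and the median gene of chromosome X had a log2 fold change of -0.23. The Col4a5 call was lost without NGLY1-/- replicate 2 or 3, or WT replicate 1 or 2 (adjusted p = 0.0935 to 0.142). No test of the difference between the pair's fold changes was run, since Col4a6 had fewer than 10 counts in every NGLY1-/- library. Epithelial markers, from cells rich in basement membrane, summed to 0.701 to 1.504 CPM in NGLY1-/- and 1.83 to 2.52 CPM in WT. Of the 3 tested, Cdh1 and Krt8 were lower in NGLY1-/- and Krt18 was not called (log2 fold change 0.26). Epcam, not tested, was counted 1, 5 and 5 times in the NGLY1-/- libraries and 2, 0 and 0 times in the WT libraries. The part of these markers in the Col4a6 and Col7a1 results was not tested.

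Col18a1, the basement membrane collagen whose tail is the fragment endostatin, rose. On chromosome 10 at 77052178 to 77166530, it was at 90.97, 101 and 96.2 CPM in the NGLY1-/- libraries and 27.2, 26.6 and 31.4 CPM in the WT libraries, with no overlap. Means were 96.1 ± 5.16 CPM in NGLY1-/- and 28.4 ± 2.58 CPM in WT, a 3.39-fold rise (log2 fold change 1.76, SE 0.10, adjusted p = 4.92e-07). Slc19a1, a folate carrier gene that overlaps it by 8825 bases on the opposite strand without sharing exonic bases, was at 80.9 ± 5.22 CPM in NGLY1-/- and 16.1 ± 9.31 CPM in WT (log2 fold change 2.34, adjusted p = 0.000544). How counting treated strand was not given, so reads of the 2 genes within introns cannot be told apart. The other multiplexin, Col15a1, had 6, 10 and 17 counts in NGLY1-/- and 1, 2 and 5 in WT and was not tested, and neither were Col4a3 and Col4a4, the chains of the glomerular network, with 0 to 3 counts in every library.

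All 4 tested FACIT chains were called, 2 in each direction, where 60.9% of all tested genes were called. Col12a1, a chain that links fibrils to the surrounding matrix in tendon, ligament and fascia, rose. It was at 234, 155 and 165 CPM in the NGLY1-/- libraries and 115, 106 and 96.1 CPM in the WT libraries, a 1.75-fold rise (log2 fold change 0.81, SE 0.15, adjusted p = 0.00135), and the groups did not overlap. Col16a1, which associates with fibrils and microfibrils, was at 69.9, 53.8 and 64.9 CPM in the NGLY1-/- libraries and 174, 154 and 95.4 CPM in the WT libraries. It fell by 1.16 on the log2 scale (SE 0.21, adjusted p = 0.00116), or 2.24-fold, with WT replicate 3 the lowest of its group.

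Col20a1, another FACIT gene, was at 9.61, 10.5 and 8.32 CPM in the NGLY1-/- libraries and 21.2, 17.1 and 17.9 CPM in the WT libraries, and fell by 0.98 on the log2 scale (SE 0.14, adjusted p = 0.000211). Its groups did not overlap. Col9a3, a chain of the type IX collagen of cartilage, was counted 57, 49 and 67 times in NGLY1-/- and 25, 13 and 11 times in WT, a log2 fold change of 1.89 (SE 0.35, adjusted p = 0.000982). Col20a1 and Col9a3, opposite in direction, both lie on chromosome 2, whose median gene had a log2 fold change of 0.24. Col14a1 and Col19a1 had at most 1 count per library and Col22a1 at most 6, and none was tested.

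Type VI collagen showed the largest rise of any collagen gene, in 1 chain only. Its basic unit holds 1 chain each from Col6a1, Col6a2 and Col6a3, and the last is the long chain with many repeats of the von Willebrand factor A fold. A promoter window of each gene is shown because the 3 chains of this trimer differed in response, Col6a3 at chr1:90843922-90844221, Col6a1 at chr10:76725995-76726294 and Col6a2 at chr10:76623355-76623654, all on the minus strand. Capitals mark GGGCGG on either strand, of which Col6a2 has 3 and Col6a3 and Col6a1 have none, and none of these windows holds CCAAT or TATAAA. Another RefSeq start of Col6a2 has a window at chr10:76623581-76623880 with 1 GC box, which is not shown.
Col6a3: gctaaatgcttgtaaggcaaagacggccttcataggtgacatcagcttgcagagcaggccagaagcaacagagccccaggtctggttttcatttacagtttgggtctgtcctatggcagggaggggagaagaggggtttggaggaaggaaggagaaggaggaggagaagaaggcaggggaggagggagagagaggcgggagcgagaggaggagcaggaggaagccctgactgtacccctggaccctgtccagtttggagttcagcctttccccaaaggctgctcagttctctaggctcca
Col6a1: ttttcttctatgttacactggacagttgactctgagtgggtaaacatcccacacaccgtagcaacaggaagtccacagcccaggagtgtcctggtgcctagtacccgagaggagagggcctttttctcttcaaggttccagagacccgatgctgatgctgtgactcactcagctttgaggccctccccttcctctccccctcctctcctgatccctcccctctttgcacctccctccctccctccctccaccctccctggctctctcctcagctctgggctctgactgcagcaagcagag
Col6a2: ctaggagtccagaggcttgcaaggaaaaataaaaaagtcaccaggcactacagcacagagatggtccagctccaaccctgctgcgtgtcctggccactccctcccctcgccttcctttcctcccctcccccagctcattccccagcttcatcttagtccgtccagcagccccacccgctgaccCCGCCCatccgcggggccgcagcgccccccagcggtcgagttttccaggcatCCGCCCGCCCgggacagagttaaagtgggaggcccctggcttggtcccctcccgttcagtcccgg
Col6a3, on chromosome 1 at 90766860 to 90844001, was counted 41598, 40296 and 48561 times in the NGLY1-/- libraries and 4904, 3494 and 1534 times in the WT libraries. In CPM it was at 1227, 1228 and 1369 in NGLY1-/- and 121, 89.7 and 56.1 in WT, so the lowest NGLY1-/- library was far above the highest WT library. The rise was 14.3-fold, a log2 fold change of 3.84 (SE 0.26, adjusted p = 3.92e-06). Across all the alternatives tried it stayed between 3.56 and 4.12. The median gene of chromosome 1 had a log2 fold change of 0.14. Per kilobase of coding sequence Col6a3 ranked 5th among the collagens in NGLY1-/- (129 CPM) and 14th in WT (9.01 CPM).

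The 2 partner chains were not called. Col6a1 was at 374, 321 and 369 CPM in the NGLY1-/- libraries and 442, 420 and 281 CPM in the WT libraries (log2 fold change -0.10, SE 0.16, adjusted p = 0.595). Col6a2 was at 128, 117 and 142 CPM in the NGLY1-/- libraries and 183, 156 and 124 CPM in the WT libraries (log2 fold change -0.26, SE 0.14, adjusted p = 0.137). WT replicate 3 was the lowest WT library for both, and without it Col6a1 (adjusted p = 0.0226) and Col6a2 (adjusted p = 0.00388) were lower. Col6a5 had at most 1 count in a library.

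The balance of chains was followed as the ratio of 2 chains per coding base in each library. The Col6a3/Col6a1 ratio was 1.02, 1.195 and 1.16 in the NGLY1-/- libraries and 0.0851, 0.0667 and 0.0624 in the WT libraries. Its means were 1.13 ± 0.0894 in NGLY1-/- and 0.0714 ± 0.0121 in WT (SD, n = 3 each), 15.9-fold apart. The exact two-sided permutation test gave p = 0.1, the smallest that 3 against 3 libraries allows, and 0.467 after Benjamini-Hochberg adjustment over 7 ratios. No other ratio separated the genotypes.

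Col1a1/Col1a2 was 0.647 ± 0.077 in NGLY1-/- and 0.528 ± 0.0828 in WT (exact permutation p = 0.2). Col4a1/Col4a2 was 1.49 ± 0.187 in NGLY1-/- and 1.53 ± 0.0434 in WT (exact permutation p = 0.7). Col6a1/Col6a2 was 2.78 ± 0.157 in NGLY1-/- and 2.48 ± 0.221 in WT (exact permutation p = 0.2). These tests cannot show that the ratios are alike. The remaining ratios, Col5a1/Col5a2, Col3a1/Col1a1 and Col5a1/Col1a1, gave exact permutation p = 0.3 to 0.7. Col4a5/Col4a6, Col8a1/Col8a2 and Col11a1/Col5a1 were not used because a chain had fewer than 10 counts in some library.

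**Figure D4:**
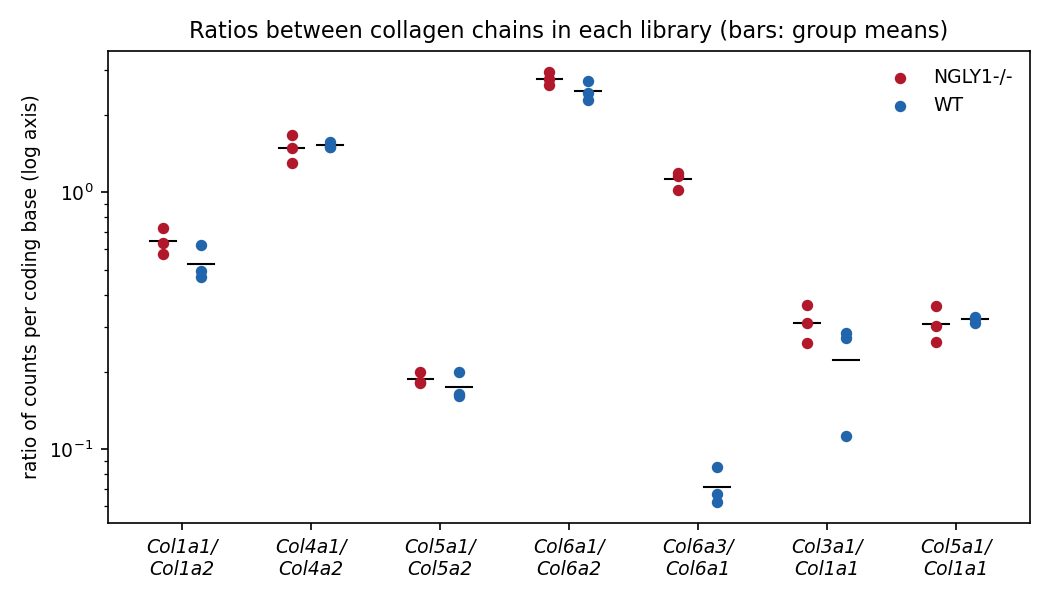
Ratio of the counts per coding base of 2 chains in each library (log axis), NGLY1-/- left of WT. Col6a3/Col6a1 lies at 1.02 to 1.195 in NGLY1-/- and 0.0624 to 0.0851 in WT, and the other ratios overlap between genotypes.

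Among the remaining chains, Col7a1, the anchoring fibril chain that ties the skin's basement membrane to the dermis, fell. On chromosome 9 at 108953586 to 108984875, it was counted 111, 86 and 135 times in the NGLY1-/- libraries and 1012, 875 and 773 times in the WT libraries. Its level was 3.23 ± 0.594 CPM in NGLY1-/- and 25.2 ± 2.92 CPM in WT (SD, n = 3 each), 7.77-fold lower (log2 fold change -2.96, SE 0.17, adjusted p = 4.65e-07). The median gene of chromosome 9 was lower too, at a log2 fold change of -0.45, and its part in the result was not tested. The short-chain network collagens moved apart. Col8a1, from the matrix of vessels and the cornea, was at 204, 168 and 184 CPM in the NGLY1-/- libraries and 209, 213 and 269 CPM in the WT libraries, and fell by 0.31 on the log2 scale (SE 0.12, adjusted p = 0.0481), while the median gene of its chromosome, 16, was at -0.37. That call was lost without NGLY1-/- replicate 2 or 3, or WT replicate 2 or 3 (adjusted p = 0.0633 to 0.2). Its partner Col8a2 was counted 98, 70 and 87 times in NGLY1-/- and 28, 40 and 5 times in WT and rose by 1.93 on the log2 scale (SE 0.46, adjusted p = 0.00469).

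The untested members were scarce in both genotypes, with a highest count of 17 in any library. Col10a1, the hypertrophic cartilage chain, had 5, 6 and 3 counts in NGLY1-/- and 7, 4 and 1 in WT, and shares 18 exonic bases with Nt5dc1. Col17a1, a transmembrane chain of hemidesmosomes in epithelium, had 7, 6 and 4 counts in NGLY1-/- and 9, 11 and 4 in WT. Col28a1 had 2, 1 and 2 counts in NGLY1-/- and 13, 2 and 1 in WT. Of the other scarce chains, Col23a1 reached 9 counts in a single NGLY1-/- library, while Col13a1, Col25a1 and Col26a1 had at most 3 counts in any library.

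Promoter windows were found for 31 of the 40 collagens and 21 of the 25 tested. GGGCGG on either strand, the GC box, was in the window of 16 of the 21, CCAAT in 9 and TATAAA in 2, against 35.7%, 37.4% and 13.6% of all 32851 windows of the same length. A collagen gene counted if any of its windows held the letters, while the background counted single windows over all genes, tested or not. Of the tested genes with a window, 3 of 4 higher, 7 of 9 lower and 6 of 8 not called held a GC box. A match is a description of letters in the window and not a binding site.

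Of 51 symbols listed for genes that modify, fold, export, cut, cross-link, bind or degrade collagen, 49 were found in the data. Colgalt2 and Ctage5 were absent, the latter listed as another symbol of Mia2. Of the genes found, 45 were tested, and 10 were higher, 21 lower and 14 not called, with a median log2 fold change of -0.29. More of these genes were called lower than higher, while over all tested genes the shares were 30.2% and 30.7%. Among the lower genes, Crtap, Ppib, Plod2, Loxl1 and Itga11 lie on chromosome 9, and P3h3 and Fkbp14 on chromosome 6. The median genes of these chromosomes had log2 fold changes of -0.45 and -0.41. Pcolce2 on chromosome 9 and Loxl3 on chromosome 6 were not called. The part of the chromosomes in the lower calls was not tested. In chain modification, 5 of 14 were higher, 7 lower and 2 not called. Plod1, a lysyl hydroxylase of the collagen helix, was higher (132 ± 7.79 CPM in NGLY1-/- and 67.3 ± 7.78 CPM in WT, log2 fold change 0.97), as was Plod3 (0.76). Their relative Plod2, which hydroxylates the telopeptides, was lower (39.1 ± 0.462 CPM in NGLY1-/- and 75.7 ± 12.8 CPM in WT, log2 fold change -0.95), and so was P4ha1, a prolyl hydroxylase subunit (-1.12).

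In folding and export from the endoplasmic reticulum, 0 of 9 were higher, 5 lower and 4 not called. Over all tested genes, 30.7% were higher and 30.2% lower, the shares to set beside the calls of each role. Fkbp14, a prolyl isomerase of the endoplasmic reticulum, was 8.71-fold lower (1.81 ± 0.415 CPM in NGLY1-/- and 15.7 ± 3.08 CPM in WT, log2 fold change -3.12). Sec24d, a coat protein of the vesicles that export procollagen, was lower too (-1.11). Serpinh1, the collagen chaperone HSP47, was not called (786 ± 76.5 CPM in NGLY1-/- and 813 ± 46.6 CPM in WT, adjusted p = 0.712). In propeptide removal, 2 of 7 were higher, 2 lower and 3 not called. Adamts14 (log2 fold change 1.68) and Adamts2 (1.48), which cut the amino-terminal propeptide, were higher, and Pcolce, an enhancer of carboxy-terminal cutting, was lower (-0.96). Bmp1, the carboxy-terminal proteinase, was called lower (log2 fold change -0.33, adjusted p = 0.0377), a call lost when any of 5 single libraries was left out (adjusted p = 0.0757 to 0.149).

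In cross-linking, 1 of 5 was higher, 3 lower and 1 not called. Lox, the lysyl oxidase that starts collagen cross-links, was 2.35-fold higher (749 ± 94.1 CPM in NGLY1-/- and 319 ± 31.2 CPM in WT). Loxl2, a related oxidase, was 3.02-fold lower (60.1 ± 9.05 CPM in NGLY1-/- and 181 ± 24.7 CPM in WT), and Loxl1 was lower as well (log2 fold change -1.36). Among receptors and uptake, 2 of 8 were higher, 4 lower and 2 not called. Ddr2, the receptor tyrosine kinase for fibrillar collagen, was higher (809 ± 48.7 CPM in NGLY1-/- and 447 ± 21.6 CPM in WT). The collagen-binding integrin chains differed in direction. Itga11, of fibroblasts, was 9.48-fold lower and Itga10, of cartilage, had a log2 fold change of -1.75. Itga2 had 41, 27 and 45 counts in the NGLY1-/- libraries and 0 in each WT library, a level at least 39.4-fold higher when WT is set to 3 counts summed over its libraries. Itga2 passed the filter on low counts through the NGLY1-/- libraries alone. Itga11, at 0.244 CPM in NGLY1-/- replicate 2, lay below the cutoff of 0.274 CPM there. Both integrin genes thus passed only through the group where they were high. Of the collagenases, Mmp14 (log2 fold change -0.29, adjusted p = 0.0627) and Ctsk were not called, and Mmp8 and Mmp13 were not tested.

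**Figure D5:**
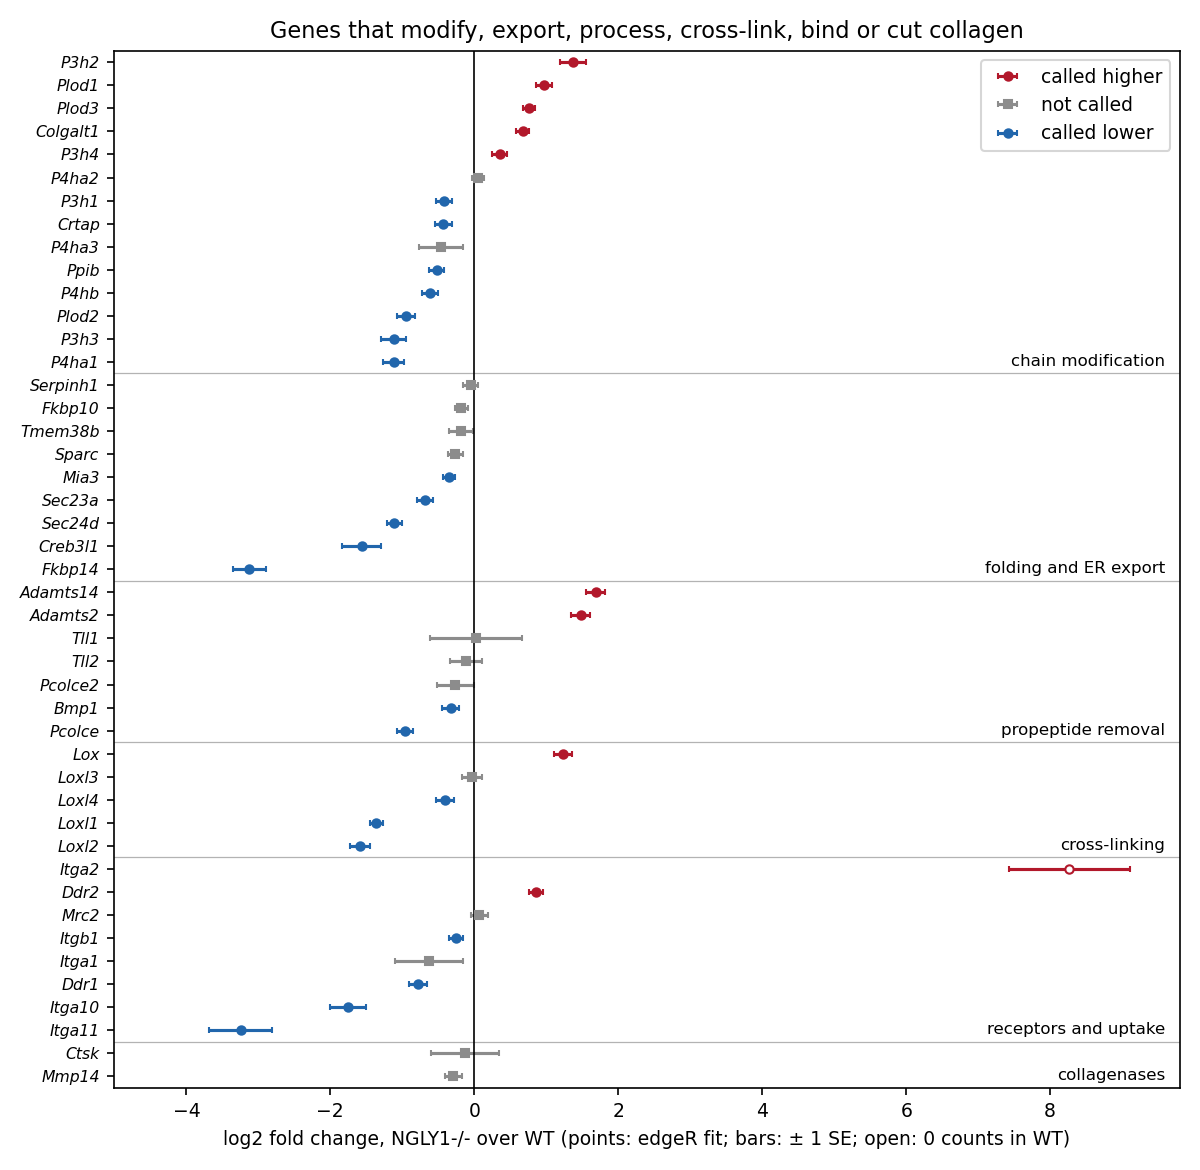
Log2 fold change, NGLY1-/- over WT, of the tested genes that modify, fold, process, cross-link, bind or degrade collagen, with standard errors of the edgeR fit as bars, grouped by role. Of 45 genes, 10 were higher and 21 lower in NGLY1-/-, against 30.7% higher and 30.2% lower among all tested genes. Folding and export, with 9 tested genes, holds no higher call.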

How the data were processed

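Per the labels' protocols, Trizol-extracted total RNA went into TruSeq Stranded libraries. The submitters' processing notes name STAR 2.5.1b and mm10. The program that counted reads, its strand setting and its annotation were not given in the sources used here. The authors deposited whole-number read counts per gene, not normalized, in 1 table of 23842 genes and 6 libraries.

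From those counts, edgeR 4.0.16 (R 4.3.3) kept 15039 genes with filterByExpr, scaled libraries by TMM and tested NGLY1-/- against WT with the quasi-likelihood F-test, two-sided, with Benjamini-Hochberg adjustment over all genes tested and a threshold of 0.05. CPM were computed with TMM-scaled libraries. Replicates of 1 group differed by more than counting noise, with chi-square per gene of 12.2 to 147. The biological coefficient of variation was 15.45%. On simulated counts for the 15039 genes with 200 changed, the test found 28% of genes changed 1.5-fold, 98.7% of those changed 2-fold and 100% of those changed 4-fold. In that simulation few genes changed, none of them scarce, and all genes had the same dispersion, whereas 60.9% of genes were called in these data. Its rates therefore do not give the share of changed genes found here. Col24a1, the tested collagen with 1 to 3 counts over a group, is given with an exact counting interval, and untested genes by their counts alone; the interval and the floor of 3 counts cover counting error only. Coding lengths came from the longest coding sequence in GENCODE vM21, and promoter windows from RefSeq on GRCm38.p6. Chain ratios were tested by exact permutation over libraries.

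The members, gene lists and tests were chosen with earlier results of these data known. Values in every library are given for the 3 most abundant members of each class, for up to 4 called members with the largest change, and for members of at least 10 CPM not called; scarce genes are given by counts. From each pathway role, up to 2 higher and 2 lower genes with the smallest p are named, and Serpinh1, Mmp14 and Ctsk were added after their values were seen. Alternatives were other scalings, filters and tests, a replicate block, and leaving out libraries or structural RNA. DESeq2 1.42.0 and limma 3.58.1 served as other tests.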

Additional observations from a re-analysis of the deposited data

How the results depend on the processing

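Of 15 called collagen genes, 10 kept their direction and call in all 15 alternatives, and Col11a1 and Col24a1 in all but the minimum of 1 CPM, under which they were not tested; Col1a2, Col4a5 and Col8a1 lost theirs in some, as given above, and for Col8a1 also with the numbered-3 libraries (adjusted p = 0.19) or structural RNA (0.0541) left out. Scaling by library totals moved the median of all genes by -0.12 and gave 6 higher and 12 lower collagens, adding Col5a2, Col4a1 and Col6a2; it called 42.4% of all calls higher, against 50.4% with TMM. With 1 library left out, 6 to 7 collagens were higher and 6 to 10 lower. Over the same fits, 1 to 2 basement membrane chains were higher, 1 to 2 lower, and 1 to 3 other chains lower. The minimum of 1 CPM left 1 fibrillar chain lower, no filter gave 2 basement membrane chains higher, and leaving out structural RNA gave 1 other chain lower. Across all alternatives, 9 to 10 of the genes that modify, process or bind collagen were higher and 18 to 24 lower. Col6a3 ranked 3rd in NGLY1-/- without length and 4th by whole transcript length, a scale chosen after seeing the data. Reversals were found only among results not called. Left out 1 library at a time, the log2 fold change ran from -0.411 to 0.00915 for Col11a2 (positive without WT replicate 3), from -0.164 to 0.167 for Col27a1 (negative without NGLY1-/- replicate 2, -0.101, or WT replicate 3), from -0.178 to 0.0222 for Col4a2 (positive without WT replicate 3) and from -0.268 to 0.0149 for Col6a1 (positive without WT replicate 1). The log2 difference of the ratio ran from -0.131 to 0.0503 for Col4a1/Col4a2 and from -0.192 to 0.0442 for Col5a1/Col1a1, both positive without NGLY1-/- replicate 3. With both libraries numbered 3 left out, Col11a2 gave 0.155, Col27a1 -0.0434, Col4a1/Col4a2 0.0393 and Col5a1/Col1a1 0.0236, and library totals gave -0.0986 for Col27a1. The cause was not tested. Same-numbered libraries of the 2 genotypes correlated at 0.0961, 0.0138 and 0.209 in their deviations, so pairing was not established. With the replicate block, 4690 genes were higher and 4563 lower, with 6 and 9 collagens, and NGLY1-/- replicates 1 and 2 did not correlate best with their own number.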
